A study of Mus musculus with 12 samples.

Results

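The H3K9me3 that remained on X-linked genes when the chromosomal protein SmcHD1 was missing was compared between epiblast stem cells and embryonic fibroblasts. Members were the X-linked genes with a deposited H3K9me3 value in both MD1 libraries, and 726 of the 952 genes in the table met that rule. The libraries came from female mouse cells homozygous for MD1, a loss-of-function allele of Smchd1 (Smchd1 MD1/MD1 Xist deltaA/+). EpiSCs, pluripotent stem cells grown from the epiblast, came from embryos at E6.5, and MEFs, cultured embryonic fibroblasts, from embryos at E13.5. Wild-type cells of both kinds (Smchd1 +/+ Xist deltaA/+) served as the reference. Every group carried Xist deltaA, an Xist allele without its silencing repeat, on 1 X, and all cells came from C57BL6/J crossed with JF1 x C57BL6/J F1 animals. The series holds 8 ChIP and 4 input libraries, 1 for each mark, genotype and cell type. The number of embryos or cell lines behind a library is not given in the labels, so no difference below has a replicate check and none carries a p-value.

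In female mammals 1 X chromosome is silenced by Xist RNA, which recruits Polycomb complexes that deposit H3K27me3. H3K9me3 is the mark of constitutive heterochromatin and also covers parts of the inactive X. SmcHD1, a noncanonical SMC protein, accumulates on the inactive X and is needed to keep many of its genes silent. Elsewhere in the genome H3K9me3 is placed at repeats and at clusters of zinc finger and testis genes by pathways that include KRAB zinc finger proteins and SETDB1.

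Values are log2 enrichments per gene as the authors deposited them, taken here to be ChIP divided by matched input, so that 0 stands for the input level and 1 for 2-fold over it. Each library has a constant of unknown origin, and percentile ranks within a library, which do not depend on it, are given beside the differences. Whole-number pairs recovered from the ratios served as a guide to depth. The median ChIP pair was 13 in MD1 EpiSCs and 32.5 in MD1 MEFs, and the median input pairs were 86.5 and 143.5. In MD1 EpiSCs 81 genes rested on a ChIP pair of 1, in MD1 MEFs 46 did, and 28 did in both. The lowest values are therefore the least certain. Intervals in brackets are 95% counting intervals from these pairs and cover counting error only. Expression markers of EpiSCs or fibroblasts and Smchd1 itself were not analysed here, so cell type and genotype stand as labelled. A pool of cells with less H3K9me3 in each and a pool with fewer marked cells cannot be told apart in such data.

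In the deposited values the remaining H3K9me3 had the same centre in both cell types. In MD1 EpiSCs the median was −1.27, with quartiles of −1.69 and −0.75 and a range from −4.55 to 3.41. In MD1 MEFs the median was also −1.27, with quartiles of −1.97 and −0.70 and a range from −5.85 to 2.67. The MEF values were spread more widely, with an interquartile range of 1.28 against 0.95. Among the same genes WT EpiSCs had a median of 2.03 (n = 702) and an interquartile range of 3.12. WT MEFs had a median of −0.077 (n = 719) and an interquartile range of 1.31. The large gap between the wild-type cell types was thus not seen between the MD1 cell types.

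**Figure D1:**
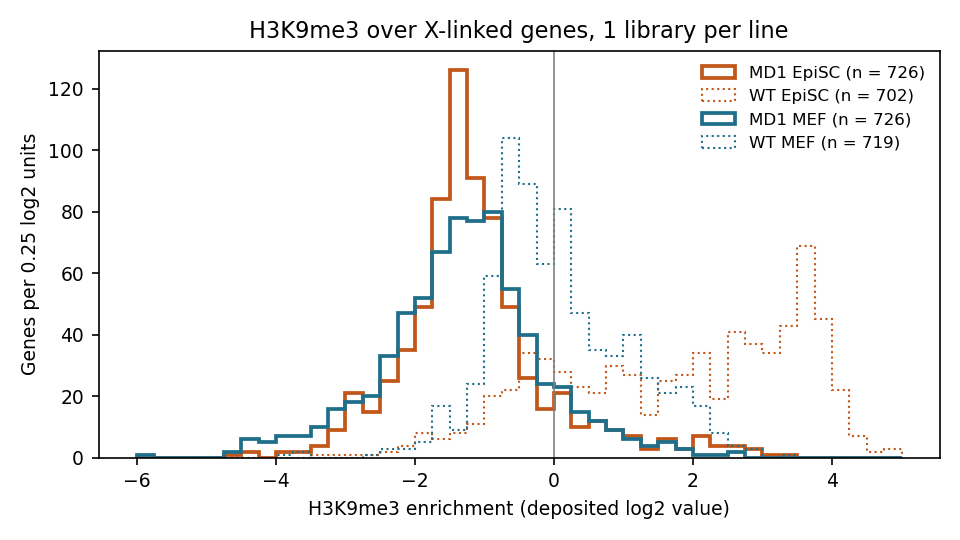
Number of genes (vertical axis) in bins of 0.25 log2 units of deposited H3K9me3 enrichment (horizontal axis), 1 library per line. Solid lines are MD1 cells and dotted lines WT cells. Both MD1 libraries centre at −1.27, while WT EpiSCs centre at 2.03 and WT MEFs at −0.077.

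Few genes remained enriched. At least 2-fold over input were 39 of the 726 genes (5.37%) in MD1 EpiSCs and 22 (3.03%) in MD1 MEFs. The counting interval stayed above 0 in 33 of the 39 and in all 22. At least 2-fold under input were 466 and 446 genes. With input pairs of at least 20 in both libraries, which 588 genes had, the counts over input were 18 and 9.

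Gene by gene, the MEF minus EpiSC difference had a median of −0.016, quartiles of −0.73 and 0.44 and an SD over genes of 1.08. It lay within 2-fold in 513 genes (70.7%). At least 2-fold higher in MD1 MEFs were 75 genes (10.3%), and at least 2-fold lower were 138 (19%). The counting interval left out 0 in 29 of the 75 and in 60 of the 138. An EpiSC ChIP pair of 1 lay behind 24 of the 75, and a MEF pair of 1 behind 36 of the 138. With the input filter 59 were higher and 79 lower. In WT cells 476 of 698 genes (68.2%) were at least 2-fold lower in MEFs and 24 (3.44%) were higher, around a median difference of −1.90. Subtracting each MD1 library's median left the 75 and 138 as they were, since the medians are nearly equal.

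The order of the genes was partly shared. Across the 726 genes the Spearman correlation of the MD1 libraries was 0.51 and the Pearson correlation 0.55. Where input pairs reached 20 it was 0.58 (Spearman, n = 588), and where they reached 100 it was 0.64 (n = 324). Wild-type cells gave 0.66 over 698 genes. These are descriptions across genes of 1 chromosome, which share libraries and neighbours and are not replicates. Within a cell type, MD1 and WT values were less alike, with a Spearman correlation of 0.26 in EpiSCs (n = 702) and 0.26 in MEFs (n = 719). The WT libraries were deeper, with median ChIP pairs of 72 and 57, and the part of depth here was not tested.

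At 10% the lists shared more genes at the top of the order than at the bottom. Of the 73 genes in the top 10% of each library (10.1% of all), 45 were in both (6.2% of all genes, 61.6% of each list). Of the 74 lowest genes in MD1 EpiSCs and the 73 lowest in MD1 MEFs, 17 were in both (23% and 23.3%). Where input pairs reached 100, a setting chosen after seeing the data, the shares of the EpiSC lists were 50% at the top and 46.9% at the bottom. The 45 genes high in both had median ChIP pairs of 24 and 43, and the 17 low in both had 1 and 2, so the low end is measured far less precisely. Opposite ends were rare. Only 2 genes were in the EpiSC top and the MEF bottom 10%, and 0 the other way. Gpr50, an orphan receptor related to the melatonin receptors, had 0.64 in MD1 EpiSCs and −3.07 in MD1 MEFs. P2ry4, a nucleotide receptor, had 0.27 and −3.31. In MEFs each rested on a ChIP pair of 1. In the EpiSC top 10% and under the MEF median were these genes with Hsd17b10, a mitochondrial dehydrogenase (0.66 and −1.60), and Gm6890 (0.54 and −2.07 on ChIP pairs of 1). In the MEF top 10% and under the EpiSC median were Taf7l, a germ-cell paralogue of a TFIID subunit (−1.31 and 0.06), and Klhl34 (−1.92 and 0.35). These 6 genes were picked out after their values were seen.

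**Figure D2:**
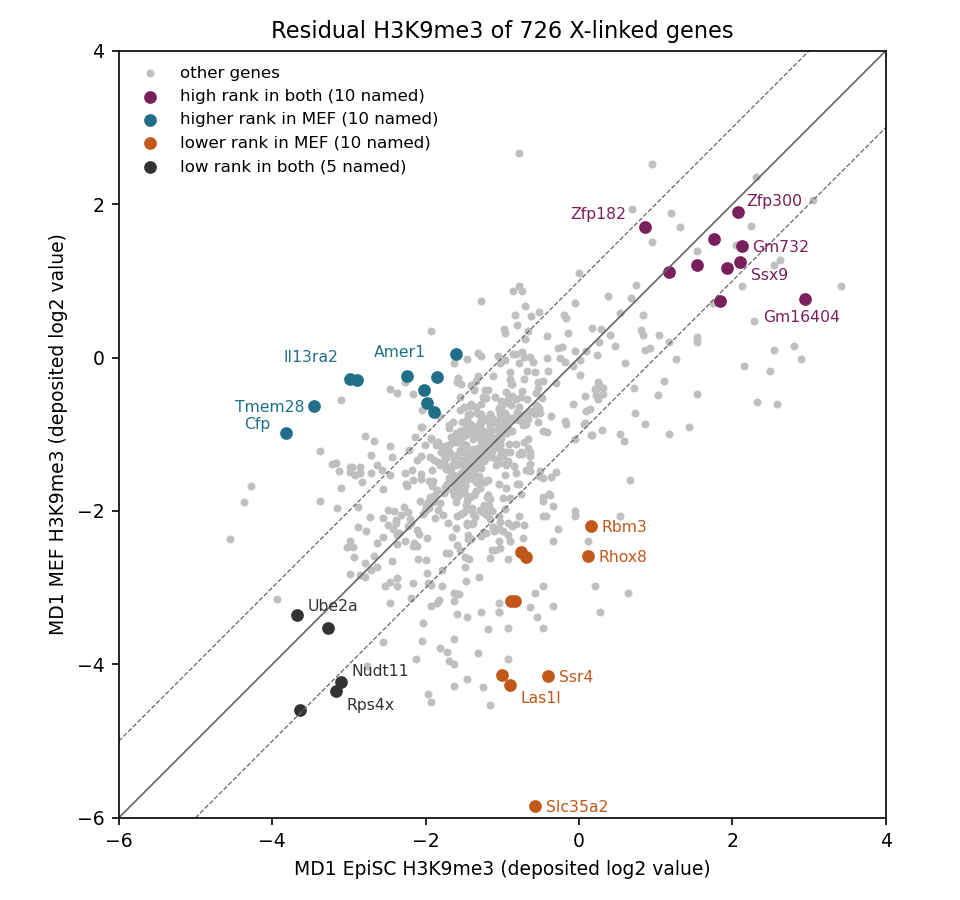
H3K9me3 of each of the 726 genes in MD1 EpiSCs (horizontal axis) and MD1 MEFs (vertical axis), deposited log2 values. The solid line marks equal values, the dashed lines a 2-fold difference, and coloured points the 35 genes named by rank. Most points, 513 of 726, lie between the dashed lines, and the genes with a lower rank in MEFs reach down to −5.85.

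The 16 genes at least 2-fold over input in both libraries were AU022751, the synovial sarcoma X family members Ssxb2 and Ssx9, the zinc finger gene Zfp300, Cdr1, the gag-derived gene Ldoc1, Fam47c, Tsga8, Pet2, 4933401B06Rik, Gm732, Cylc1, 4930412D23Rik, 4930524N10Rik, Samt4 and Samt2. Of these, 7 passed the input filter. The highest pair of ranks was that of Fam47c (X, 75983102 to 75984749), with 3.05 in MD1 EpiSCs and 2.05 in MD1 MEFs against 4.73 and 2.36 in WT. It is short, with input pairs of 7 and 6, and did not pass the filter. Cdr1 (58436421 to 58438733) had 2.30 and 2.36, also on small pairs.

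Among genes that passed the filter, the 10 with the highest ranks in both were Gm732, Ssx9, Zfp300, 4930524N10Rik, 4930412D23Rik, Cylc1, Gm16404, Ssxb8, Ssxb2 and Zfp182. Their values ran from 0.87 to 2.94 in MD1 EpiSCs and from 0.74 to 1.90 in MD1 MEFs, and their median ChIP pairs were 38 and 56.5. All lay above input in both libraries. Zfp300 (X, 20656276 to 20666355), a zinc finger gene, had 2.07 in MD1 EpiSCs and 1.90 in MD1 MEFs, a difference of −0.17 [−0.97 to 0.64]. In WT it had 3.53 and 2.47, so its MD1 value was lower than its WT value in both cell types. The MEF change of Zfp300 was only −0.57, and no interval was computed for it. Its neighbour Zfp182 (20603310 to 20639164) had 0.87 and 1.70, a difference of 0.83 [0.46 to 1.20] on ChIP pairs of 122 and 697. In WT its order was the opposite, with 3.88 in EpiSCs and 1.97 in MEFs. Zfp182 was 1 of the 3 genes of this group whose interval left out 0.

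Gm732 (105141074 to 105143775) had 2.12 and 1.45, a difference of −0.67 [−1.55 to 0.22], against 4.12 and 2.33 in WT. Cylc1, a component of the sperm head cytoskeleton (108305757 to 108319213), had 1.54 and 1.21, and its WT MEF value was 1.16. Its MD1 and WT MEF values were thus nearly equal. Gm16404 (52804773 to 52821634) kept the highest EpiSC value of the group, 2.94 against 4.09 in WT, while its MD1 MEF value was 0.76. That difference of −2.18 [−2.84 to −1.52] was the largest among the 10.

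Other genes were over 2-fold in 1 cell type. The 23 genes over it only in MD1 EpiSCs had a median of 0.098 in MD1 MEFs, where 12 of them were above input. The 6 genes over it only in MD1 MEFs were Ssxb10, Zfp182, Zcchc5, Gm7134, H2bfm and Tex13a. Tex13a, a testis gene, had the highest MEF value, 2.67 against −0.79 in MD1 EpiSCs. It rested on ChIP pairs of 10 and 1, and its interval of −0.16 to 7.07 took in 0.

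The EpiSC genes that remained high had been high in wild-type EpiSCs. Of the 32 with a WT value, 31 were at least 2-fold over input in WT, and the other, Gm14827, was under input there (−0.50). Their median was 3.75 in WT and 2.08 in MD1, and 4 lay within 2-fold of their WT level. In MEFs 20 of the 22 were over 2-fold in WT, except Ssx9 (0.90) and 4930524N10Rik (0.80), with medians of 2.01 in WT and 1.53 in MD1. Here 19 lay within 2-fold of WT and 7 were higher in MD1. Over the whole top 10%, 95.3% of 64 genes in EpiSCs and 68.1% of 72 in MEFs were over 2-fold in WT, against 64.0% and 19.9% of all genes with a WT value. Seen from the wild type, few rich genes stayed so: 31 of 449 in EpiSCs (6.90%) and 20 of 143 in MEFs (14%). Of 126 genes that were rich in both WT cell types, 11 remained at least 2-fold over input in both MD1 libraries, and the MD1 medians of the 126 were −0.77 and −0.86.

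Neighbouring genes were much less alike in MD1 EpiSCs than in WT EpiSCs, and somewhat less alike in MD1 MEFs than in WT MEFs. The Spearman correlation of a gene's value with that of the next measured gene was 0.89 in WT EpiSCs and 0.20 in MD1 EpiSCs. In MEFs it was 0.47 in WT and 0.40 in MD1. With the input filter the 4 values were 0.89, 0.16, 0.53 and 0.39. Measured genes next to each other can overlap and share reads. The libraries also differed in depth, with median ChIP pairs of 72 in WT and 13 in MD1 EpiSCs. In MEFs they were 57 and 32.5. The part of depth in these correlations was not tested.

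Part of what remained lay in runs of neighbouring genes along the chromosome, and some runs were shared by the cell types. In intervals of 10 Mb the highest MEF medians were at 110 to 120 Mb (0.44, n = 6) and 120 to 130 Mb (0.43, n = 5), where the EpiSC medians were −0.49 and −0.52. The next was 80 to 90 Mb, with −0.25 in MEFs and −0.68 in EpiSCs (n = 13). Lowest in MEFs was 70 to 80 Mb, with −1.78 against −1.31 in EpiSCs (n = 76). The 10 Mb medians in EpiSCs ran from −1.43 to −0.49, while with 5 Mb intervals the highest was 1.54.

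**Figure D3:**
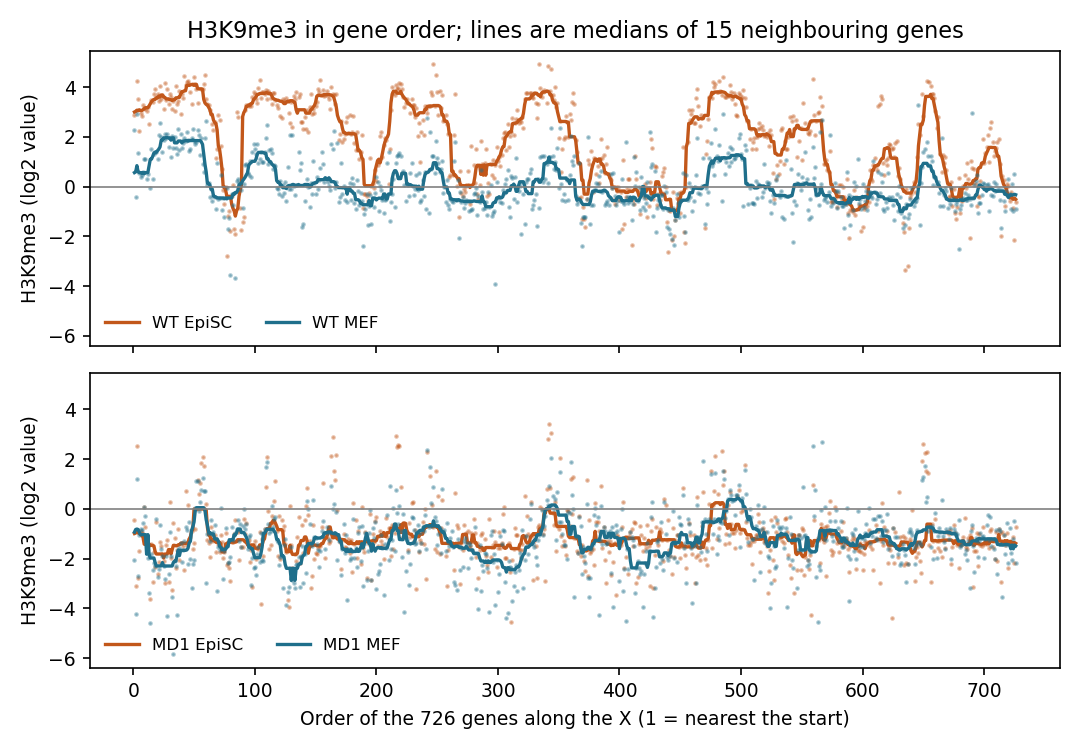
Deposited log2 H3K9me3 (vertical axes) of the 726 genes in their order along the X (horizontal axis), WT above and MD1 below. Points are genes and lines are medians of 15 neighbouring genes. The WT EpiSC plateaus near 3 to 4 are missing in MD1, and the MD1 lines come near or above 0 at only a few places.

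A group at the Ssx genes was high in both. In MD1 MEFs 9 consecutive measured genes from Slc38a5 to Gm6592 (X, 7848507 to 8426733) were all in the top 20%, and in MD1 EpiSCs 9 from Ssxb10 to B630019K06Rik (7904550 to 8472090). The 9 MEF genes had medians of 1.04 in EpiSCs and 0.71 in MEFs. A 9-gene MEF run from Pbsn to Mageb16 (75083237 to 76916774) held the 6-gene EpiSC run from Obp1a to Gm8787 (75330844 to 76603407), whose medians were 1.83 in EpiSCs and 0.44 in MEFs. It includes Obp1a, an odorant-binding protein gene, Fam47c and Prrg1. Toward the distal end 4930524N10Rik, Samt4, Samt2, Gm16390 and Magea8 (150773768 to 151430393) formed a run in both, with medians of 2.24 and 1.16.

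Other groups were higher in 1 cell type than in the other. From Gm362 to Actrt1 (40944166 to 43683522) 6 genes were in the EpiSC top 20%. Their medians were 1.83 in EpiSCs and −0.064 in MEFs, against 3.71 and 1.63 in WT. The best covered, 4930515L19Rik, had 2.15 and −0.11, a difference of −2.25 [−2.60 to −1.91]. Dcaf12l2 had 2.89 and −0.02 there, and its difference of −2.91 [−4.32 to −1.50] also left out 0. All 6 were lower in MEFs, and 4 of the 6 were in the MEF top 20% nonetheless. Further on, 5 genes from Gm16404 to Zfp449 (52804773 to 53618851) had medians of 2.54 and −0.18, against 4.09 and 1.24 in WT. Zfp449, a zinc finger gene at its edge, had 0.86 in EpiSCs and −0.87 in MEFs.

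The opposite was seen at 8 genes from Satl1 to Cpxcr1 (109497914 to 113592392), with medians of −0.73 in EpiSCs and 0.55 in MEFs. Dach2, a transcription factor gene of 538877 bases, had −0.84 in MD1 EpiSCs and 0.56 in MD1 MEFs, a difference of 1.40 [1.22 to 1.58] on ChIP pairs of 413 and 1569. Chm, which encodes Rab escort protein, had −1.57 and −0.26, and Zfp711, a zinc finger gene, −0.96 and 0.32. At Satl1 (0.68 and 0.77), Klhl4 (0.54 and 0.58) and Cpxcr1 (0.74 and 0.95) the cell types differed by less than the counting error. In WT the 8 genes had medians of 3.64 in EpiSCs and 1.26 in MEFs. With the input filter this run joined its neighbours into 18 genes from Sh3bgrl to Diap2 (106290746 to 127000369), with medians of −0.57 and 0.40.

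Among filtered genes with the largest rise in rank from EpiSCs to MEFs were Il13ra2, Pbsn, Tmem28, Amer1, Lpar4, Samt3, Uprt, 1700013H16Rik, Cfp and Zfx. Their MD1 MEF values ran from −0.99 to 0.04, so these are genes near or under input in MEFs and farther under it in EpiSCs. The EpiSC values ran from −3.82 to −1.61 on a median ChIP pair of 3.5. These genes and the next 10 were chosen by the change in rank itself, so their differences and intervals are a description. Il13ra2, a decoy receptor for interleukin 13 (X, 143818021 to 143838375), had −2.99 in MD1 EpiSCs and −0.28 in MD1 MEFs, a difference of 2.71 [0.98 to 4.45]. Its WT values ran the other way, 3.32 and −0.26. Amer1, a regulator of Wnt signalling (92615653 to 92640179), had −2.24 and −0.24, a difference of 1.99 [0.94 to 3.05]. The best measured of them was Zfx, a transcription factor gene (91319970 to 91368746), with −1.90 and −0.71 and a difference of 1.19 [0.53 to 1.85] on ChIP pairs of 24 and 160. The EpiSC values of Samt3 and of Cfp, the complement regulator properdin, rested on ChIP pairs of 2 and 1.

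The genes with the largest fall in rank were Ssr4, Slc35a2, Rhox8, Rbm3, Las1l, Pgrmc1, Gjb1, Ebp, Mmgt1 and Plxna3. Several are widely expressed genes. Ssr4 encodes a subunit of the translocon-associated complex, Las1l a ribosome biogenesis factor, Mmgt1 a membrane protein complex subunit and Ebp a sterol isomerase. EpiSC values ran from −1.0 to 0.15 and MEF values from −5.85 to −2.20. Slc35a2, a nucleotide sugar transporter gene (7461370 to 7471618), had −0.57 in MD1 EpiSCs and −5.85 in MD1 MEFs, a difference of −5.28 [−8.29 to −2.27] on a MEF ChIP pair of 1. With a pseudocount of 0.1 its difference was −2.72 and that of Las1l −2.06. Rbm3, a cold-inducible RNA-binding protein gene (7716101 to 7723006), had 0.15 and −2.20, a difference of −2.35 [−3.49 to −1.21]. Its percentile fell from 88.9 to 18.4. Its WT values were 4.23 and 1.87, a difference of −2.36. The median difference over all genes was −1.90 in WT and −0.016 in MD1, so the 2 differences of Rbm3 are not alike relative to other genes. At Las1l (93130652 to 93152313) the MD1 values were −0.90 and −4.26, a difference of −3.36 [−5.24 to −1.48], while WT had 0.14 and 0.43.

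H3K27me3 moved with these low MEF values. In MD1 MEFs 131 of 726 genes (18%) had H3K27me3 under input. Among the 73 genes lowest in H3K9me3 it was 35 (47.9%), with a median H3K27me3 of 0.35 against 2.38 over all genes. It was 46 of the 138 genes lower in MEFs (33.3%), 6 of the 75 higher (8%) and 79 of the 513 within 2-fold (15.4%). Of the 10 genes above, Slc35a2 (−3.71), Plxna3 (−2.69), Las1l (−1.43) and Mmgt1 (−1.33) were under input. The series has 1 input library per genotype and cell type, so both marks share it if the values are ChIP over matched input. A shared input moves both values of a gene the same way, and its part in this was not tested. Across genes the Spearman correlation of the marks was 0.28 in MD1 MEFs and 0.0039 in MD1 EpiSCs (n = 726), where Pearson's was −0.23.

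In MD1 EpiSCs low H3K27me3 went with the other end of the order. Only 16 genes had H3K27me3 under input there, and 8 of them were in the H3K9me3 top 10%. These were Gm732, Gm16404, 3830403N18Rik, Obp1a, Fam47c, 4930524N10Rik, Samt4 and Samt2. The other 8 included Xist, the RNA gene that starts X inactivation, its neighbours Jpx and Ftx, and the escape genes Kdm6a and Ddx3x, all 5 under the EpiSC median for H3K9me3. Xist had −1.90 for H3K9me3 in MD1 EpiSCs and −1.04 for H3K27me3. Samt4, a testis membrane protein gene, had 2.62 for H3K9me3 and −2.22 for H3K27me3. The median H3K27me3 of the 73 top genes was 3.26, against 4.08 over all genes, so most were above input for both marks. Only 39 of the 73 were at least 2-fold over input for H3K9me3. Values from pooled cells cannot show whether the marks lay together. In the 74 lowest genes the median H3K27me3 was 3.89.

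Genes low in both cell types were few and thinly covered. The 5 named by rank were 2010204K13Rik, the ribosomal protein gene Rps4x, Nudt11, the kinase gene Pim2 and Ube2a, a ubiquitin-conjugating enzyme gene. Values lay between −3.67 and −3.11 in MD1 EpiSCs and between −4.59 and −3.36 in MD1 MEFs. Each rested on a ChIP pair of 1, except for a pair of 5 at Ube2a in MEFs. Rps4x (X, 99380282 to 99383710) had −3.16 and −4.35 and was under input in WT too, with −0.50 and −1.17. Nudt11 (5624625 to 5631869), Pim2 and Ube2a had been rich in WT EpiSCs, with 3.02, 3.11 and 3.45. For the MEF minus EpiSC difference, none of the 5 intervals left out 0.

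Promoters with few CG dinucleotides, the sites of DNA methylation, were common among the genes that stayed high. CG was counted in the 250 bases before the RefSeq start of GRCm38.p6, for 611 of the 726 genes with a matched promoter. In the EpiSC top 10% the median was 3 and 48.3% of 60 genes had at most 2, in the MEF top 10% the median was 3 and 46.4% of 56 had at most 2, and over all 611 genes the median was 8 and 19.0% had at most 2. The 4 promoters below are those with the fewest and the most CG among the genes named as high in both and low in both. CG, read on the gene's strand, is in capitals. The promoter of 4930524N10Rik, listed by RefSeq as Samt2b (chrX:154343393-154343642, minus strand), has 0 CG and that of Zfp300 (chrX:21089230-21089479, minus strand) has 10. Of the low genes, 2010204K13Rik (chrX:7422989-7423238, minus strand) has 3 and Nudt11 (chrX:6047257-6047506, plus strand) has 48.
4930524N10Rik: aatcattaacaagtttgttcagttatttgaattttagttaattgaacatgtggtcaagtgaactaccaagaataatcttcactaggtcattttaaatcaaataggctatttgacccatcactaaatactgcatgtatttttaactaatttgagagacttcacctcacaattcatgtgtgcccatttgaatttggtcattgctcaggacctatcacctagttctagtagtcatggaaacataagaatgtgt
Zfp300: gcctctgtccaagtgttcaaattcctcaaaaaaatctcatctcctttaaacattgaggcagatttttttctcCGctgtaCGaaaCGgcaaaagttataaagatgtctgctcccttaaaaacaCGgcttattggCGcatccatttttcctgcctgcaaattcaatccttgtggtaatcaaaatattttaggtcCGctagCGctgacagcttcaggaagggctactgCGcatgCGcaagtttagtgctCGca
2010204K13Rik: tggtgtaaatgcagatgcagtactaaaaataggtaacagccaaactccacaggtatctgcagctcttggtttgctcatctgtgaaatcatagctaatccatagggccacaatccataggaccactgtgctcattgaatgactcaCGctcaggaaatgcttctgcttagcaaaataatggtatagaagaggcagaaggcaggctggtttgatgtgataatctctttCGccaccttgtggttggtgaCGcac
Nudt11: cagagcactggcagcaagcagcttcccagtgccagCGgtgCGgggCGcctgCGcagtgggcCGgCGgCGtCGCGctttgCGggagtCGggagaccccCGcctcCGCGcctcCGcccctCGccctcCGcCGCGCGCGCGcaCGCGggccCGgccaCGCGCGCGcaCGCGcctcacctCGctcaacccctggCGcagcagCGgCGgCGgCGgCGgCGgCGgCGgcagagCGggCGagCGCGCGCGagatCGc

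Zfp300 ranked high with 10 CG and 2010204K13Rik low with 3, so the count alone did not order these 4 genes. CG occurs in 89.0% of 1223 RefSeq promoter windows of X genes, with a median of 5. From the class with 0 to 2 CG to that with 21 to 48, medians in MD1 EpiSCs were −0.95, −1.27, −1.32, −1.42 and −1.53 (n = 116, 117, 131, 179 and 68). In MD1 MEFs they were −0.71, −1.11, −1.31, −1.64 and −1.54. The Spearman correlation with CG was −0.27 in MD1 EpiSCs and −0.37 in MD1 MEFs (n = 611), against −0.091 and −0.098 in WT. Of the 116 genes with at most 2 CG, 29 were in the EpiSC top 10% and 26 in the MEF top 10%, while among the 68 with over 20 it was 1 and 0. The classes were set after the data were seen.

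**Figure D4:**
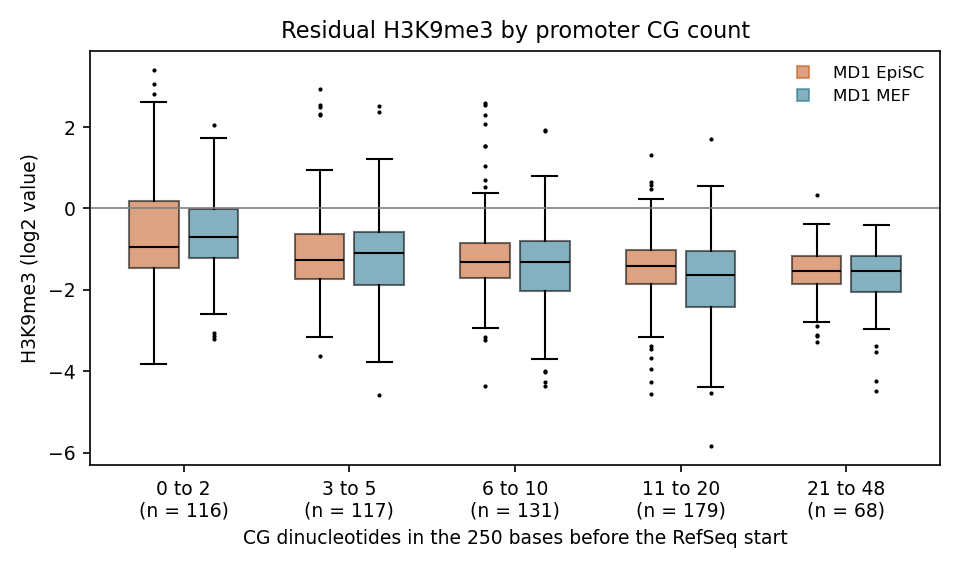
Deposited log2 H3K9me3 (vertical axis) in MD1 EpiSCs and MD1 MEFs by the number of CG dinucleotides in the 250 bases before the RefSeq start (horizontal axis, with the number of genes). Boxes span the quartiles with the median as a line, whiskers reach the farthest gene within 1.5 interquartile ranges, and points are genes beyond. The medians of the class with 0 to 2 CG, −0.95 and −0.71, are the highest of the 5.

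Gene density moved with the MEF values more than with the EpiSC ones. The Spearman correlation with the number of table genes within 500 kb was −0.40 in MD1 MEFs and −0.18 in MD1 EpiSCs (n = 726). The MEF top 10% had a median of 6 such genes, the MEF bottom 10% had 15, and all genes had 10. The 10 genes with the largest fall in rank had 30.5. Short genes were found at both ends of the order: the median length was 5842 bases in the EpiSC top 10%, 6158 in the MEF top 10% and 5769 in the MEF bottom 10%, against 19392 in all. Short genes have few reads and wide counting error. With the input filter the top lists had medians of 17133 and 18696 bases, against 25786.5 over all filtered genes.

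Gene families were then read by rank, with 50 as the percentile of the median gene and values spread as in the plot of lists. Members of several families are near-identical copies, so reads could have been split among them and their values are uncertain. The 7 measured Ssx genes (of 9), cancer-testis antigens, had median percentiles of 95.1 in MD1 EpiSCs and 95.6 in MD1 MEFs. In the top 10%, which held 10.1% of all genes, 6 of the 7 were found in each library, and 1 was at least 2-fold higher and 2 lower in MEFs (10.3% and 19% of all genes). Their MD1 values ran from −0.01 to 2.10 in EpiSCs and from −0.07 to 1.25 in MEFs. Ssxb8 had 1.84 and 0.74, a difference of −1.09 [−2.02 to −0.16], and Ssxb10 the reverse, −0.01 and 1.10, a difference of 1.11 [0.05 to 2.16]. Of the multi-copy testis genes 6 of 19 were measured, with percentiles of 97.7 and 91.7, and 3 were in the top 10% of both. Their values ran from −1.86 to 2.62 in MD1 EpiSCs and from −1.70 to 1.72 in MD1 MEFs. In each library 1 of the 6 lay under the median of all genes, and only 3 passed the input filter. Gm773 differed most among these, with 2.58 in MD1 EpiSCs and −0.61 in MD1 MEFs, a difference of −3.19 [−3.97 to −2.42].

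**Figure D5:**
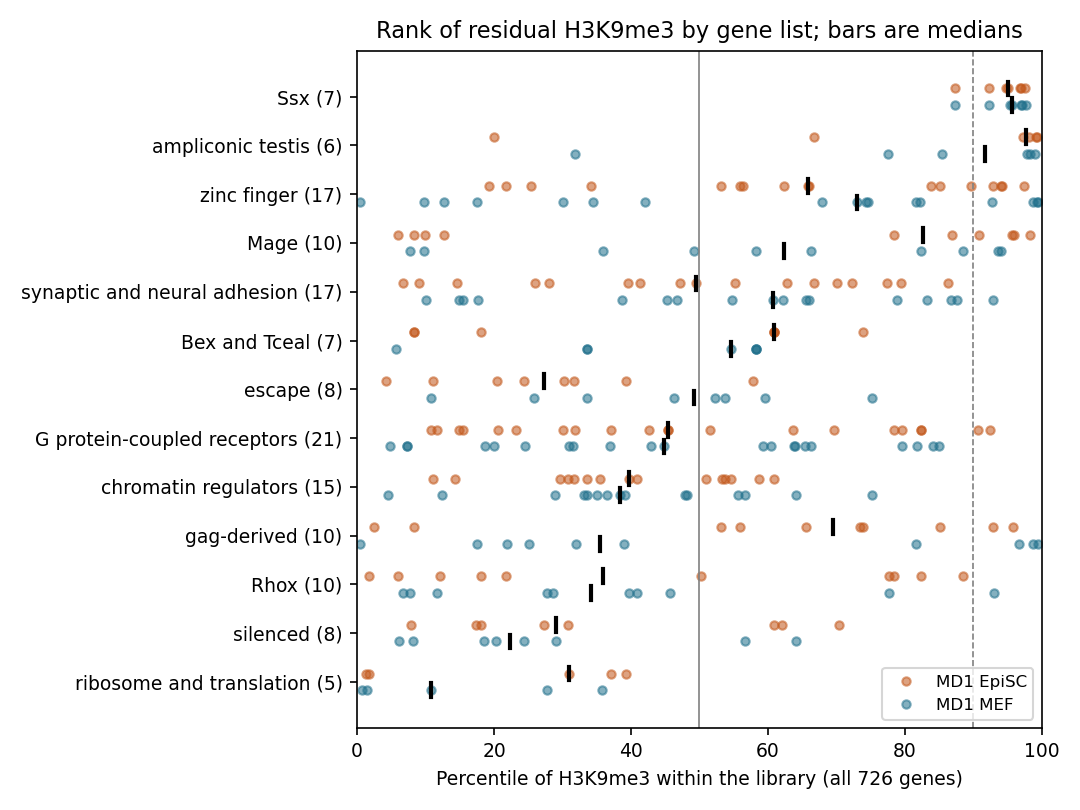
Percentile rank of H3K9me3 within each MD1 library (horizontal axis) for the measured genes of 13 lists (rows, with the number of genes). Points are genes, black bars medians, the solid line the median gene and the dashed line the start of the top 10%. The Ssx genes sit at 95.1 and 95.6, and the ribosome and translation genes at 30.9 and 10.8.

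Mage genes, another cancer-testis family, were divided. Of 10 measured, 4 were in the EpiSC top 10% and 2 in the MEF top 10%, with median percentiles of 82.6 and 62.3. Magea8 had 2.29 in MD1 EpiSCs and 0.48 in MD1 MEFs, a difference of −1.81 [−2.37 to −1.25]. Mageb18, with ChIP pairs of 1293 and 1773, had 1.27 and −0.01, a difference of −1.28 [−1.42 to −1.15]. The broadly expressed members Maged1 (−2.71 and −2.77) and Magee1 (−2.37 and −2.97) lay near the bottom of both libraries. The Rhox homeobox genes, of which 10 of 30 were measured, were not high, with percentiles of 36.0 and 34.2. Rhox13 alone was in the MEF top 10%, with 0.34 against −0.67 in EpiSCs.

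Zinc finger genes were found from the top to the bottom of the order. The 17 measured had median percentiles of 65.9 and 73.1 and held 4 genes of the top 10% in each library, 3 of them shared. In MEFs 7 of the 17 lay under the median of all genes and 2 were in the bottom 10%. Those 3 shared were Zfp182, Zfp300 and Zcchc5, and the fourth was Zfp449 in EpiSCs and Zfp711 in MEFs. Between the cell types 3 were at least 2-fold higher in MEFs and 5 lower, against 10.3% and 19% of all genes. Zfp275 had −0.40 in MD1 EpiSCs and −1.78 in MD1 MEFs, a difference of −1.39 [−2.35 to −0.42]. Genes derived from retrotransposon gag were spread, with percentiles of 69.5 and 35.5 over 10 genes, 4 of which the zinc finger list also holds. Zcchc16, the best covered of these, had −1.23 and −0.43, a difference of 0.80 [0.62 to 0.99].

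Synaptic and neural adhesion genes, many of them very long, lay near the middle of both libraries. Of 17 such genes 16 were within 2-fold between the cell types, against 70.7% of all genes, with medians of −1.27 in MD1 EpiSCs and −1.02 in MD1 MEFs. Il1rapl1, a synaptic adhesion receptor, had −0.68 and −0.17, a difference of 0.51 [0.39 to 0.63]. Il1rapl2 had −0.60 and −0.06, a difference of 0.54 [0.44 to 0.64], and Dmd, the dystrophin gene, −0.82 and −0.54, a difference of 0.28 [0.20 to 0.36]. These long genes have ChIP pairs of 1251 to 7289, so small differences exceed their counting error. The protocadherin gene Pcdh11x was the only one above input, with 0.32 in MD1 MEFs against −0.14 in MD1 EpiSCs. G protein-coupled receptors, 21 of 22 measured, sat at percentiles of 45.5 and 44.8, near the middle of all genes, with 3 higher and 4 lower at 2-fold (10.3% and 19% of all genes).

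Genes that escape X inactivation were low in MD1 EpiSCs and near the middle in MD1 MEFs. Genes that are silenced by it were low in both. The 8 escape genes had medians of −1.64 in MD1 EpiSCs and −1.29 in MD1 MEFs, at median percentiles of 27.3 and 49.2. In either top 10%, which held 10.1% of all genes, there were 0 of them. Kdm6a, an H3K27 demethylase, had −1.55 and −0.68, a difference of 0.87 [0.53 to 1.21], and Eif2s3x, a translation initiation factor, −1.44 and −2.62, a difference of −1.18 [−2.04 to −0.33]. Of the 8 silenced genes 4 were at least 2-fold lower in MEFs, against 19% of all genes. The 8 had medians of −1.60 and −2.06 and median percentiles of 29.0 and 22.3. Their median difference of −0.47 turned to 0.10 over the 7 that passed the input filter. Hprt, a purine salvage enzyme, had −0.88 and −2.20, a difference of −1.32 [−1.98 to −0.66]. Rlim, a ubiquitin ligase that acts in X inactivation, had −1.03 and −2.14, a difference of −1.10 [−2.06 to −0.15]. At G6pdx and Pgk1 the intervals took in 0. H3K27me3 in MD1 MEFs had medians of −2.16 in the escape and −0.87 in the silenced genes, against 2.38 over all genes.

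Chromatin regulator genes stayed near the middle and below. Of 15, 13 lay within 2-fold, against 70.7% of all genes, with percentiles of 39.7 and 38.4, and 0 were in either top 10%. Phf6 was lower in MEFs, with −1.10 and −2.51, a difference of −1.41 [−2.51 to −0.31]. Suv39h1, an H3K9 methyltransferase gene, had −1.48 and −1.66 after 3.56 and 1.76 in WT. The 5 ribosome and translation genes were lowest in MEFs, at a median percentile of 10.8 against 30.9 in EpiSCs, with 3 lower and 1 higher at 2-fold (19% and 10.3% of all genes). Rpl10 had −1.46 and −4.19 on ChIP pairs of 2 and 1, and its interval took in 0. The Bex and Tceal genes, 7 of 11 measured, rested on ChIP pairs of 1 to 5, none passed the input filter, and their percentiles were 60.9 and 54.6.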

How the data were processed

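H3K9me3 and H3K27me3 ChIP-seq was made with mouse monoclonal antibodies in EpiSCs and MEFs. Reads were handled with SAMtools, BWA and cutadapt on build mm9, per the submitters' processing notes. Versions, the counting rule, the allele, any coverage minimum and any pseudocount are not stated there or in the labels. The authors deposited log2 enrichment values, 1 per X-linked gene and ChIP library. Columns were matched to samples by name. Gene coordinates are mm9, counted from 1.

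With Python 3.11.15, numpy 2.4.6 and pandas 2.3.3, each value was written as a constant times a ratio of whole numbers (denominator at most 30000, tolerance 1e-12), with 1 denominator for both marks of a library pair. All values matched. The pairs are the smallest that give the values, and real counts may be multiples of them. They gave 95% counting intervals (normal, log2 scale) and the filter of at least 20 input pairs. The procedure was tested on simulated data. Percentiles are ranks among the 726 genes, with ties averaged.

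Among genes past the filter, the text names the 10 with the highest lower rank of the 2 libraries, the 10 with the largest rise and the 10 with the largest fall in rank, the 5 with the lowest higher rank, and list members. Genes in runs, genes over 2-fold and those at opposite ends of the order were named after their values were seen. The members and lists were chosen with earlier results of these data known. Promoters came from a RefSeq table of GRCm38.p6, where 559 genes matched by symbol and 52 more by a unique synonym (84.2% of members in all). Groups of 1 library allowed no test across samples. Other thresholds, filters, a pseudocount of 0.1, centring and other interval sizes were tried.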

Additional observations from a re-analysis of the deposited data

Results flagged for a closer look

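For 5 of the genes named by rank, the MEF minus EpiSC difference in H3K9me3 had opposite signs in MD1 and WT cells, with both counting intervals clear of 0. It was 0.834 in MD1 and −1.91 in WT at Zfp182, 2.71 and −3.58 at Il13ra2, 1.99 and −1.33 at Amer1, 1.65 and −3.43 at 1700013H16Rik, and 1.19 and −1.04 at Zfx. Each value comes from 1 library a side, and the difference between the genotypes was not tested. Of the 698 genes with both differences, 57 had this pattern, higher in MD1 and lower in WT MEFs, and 0 the reverse. Both counts used differences that were not centred, whose medians were −1.90 in WT and −0.016 in MD1. They therefore include the offset between the WT libraries, and no centred count was made. All of the 5 but Zfp182 had been picked by their rise in rank. WT libraries had very different medians, and after each library was centred on its median the WT differences were −0.011 at Zfp182, −1.68 at Il13ra2, 0.57 at Amer1, −1.53 at 1700013H16Rik and 0.86 at Zfx, so Amer1 and Zfx no longer had opposite signs and Zfp182 was within counting error of 0 in WT.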

How the results depend on the processing

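Over the settings tried, 78 summary values stayed within the spread of the reported value, or for counts within 1.5 times of it, and 25 moved. The signs of 6 summary values changed. With input pairs of at least 20 the median MEF minus EpiSC difference went from −0.467 to 0.104 in the silenced, from −0.398 to 0.838 in the Rhox and from −0.025 to 0.22 in the receptor list, and over all genes from −0.016 to 0.034 (0.020 without the lowest 10% of genes). Single genes kept their sign and stayed within their wide counting intervals, but a pseudocount of 0.1 moved 10 of the 35 named by rank by over 1.5 times, among them Slc35a2 (−5.28 to −2.72), Ssr4 (−3.75 to −2.45), Las1l (−3.36 to −2.06), Mmgt1 (−3.13 to −1.93), Cfp (2.83 to 1.82) and 2010204K13Rik (−0.955 to −0.351). At a 3-fold threshold the genes over input were 24 in MD1 EpiSCs and 10 in MD1 MEFs, and the genes higher and lower in MEFs were 28 and 69. Input pairs of at least 20 gave 18 and 9 genes over input, 79 lower in MEFs, an EpiSC median of −1.33, a Spearman correlation of 0.581, a longest MEF run of 18, 50.8% of the MEF top 10% over 2-fold in WT, and top-list lengths of 16925 and 16375 bases with the top 10% drawn anew. A pseudocount of 0.1 gave medians of −0.96 and −0.956. Shared bottom lists came to 40.3% at 20%, 13.9% at 5% and 46.9% with input pairs of at least 100, a setting chosen after seeing the data. The Spearman correlation was 0.577 for genes of at least 5000 bases and, in settings chosen after seeing the data, 0.591 with ChIP pairs of at least 2 and 0.639 with input pairs of at least 100. Intervals of 5 Mb gave a highest EpiSC median of 1.54 in place of −0.49. For the top 20%, 84.1% (EpiSC) and 43.4% (MEF) were over 2-fold in WT, and the EpiSC H3K27me3 median was 3.88. The cause of these moves was not tested. The Bex and Tceal list had no value with the input filter. No paired analysis was possible because each group had 1 library, which also left no replicate to leave out. Depth limits the low end most, where values rest on ChIP pairs of 1 to 3.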
